A study of Rattus norvegicus with 16 samples.

Results

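The comparison described here sets the pyramidal layer of CA1 against the granular layer of the dentate gyrus (DG), from 8 of the 16 deposited columns of counts: 4 of CA1 and 4 of DG. The tissue came from male Wistar rats aged 3 months, and each layer was cut from stained brain sections by laser capture microdissection, in which a laser frees chosen cells from the slice. Total RNA of each layer was sequenced, and the number of reads on each Ensembl gene was deposited. The other 8 columns hold the CA2 and CA3 pyramidal layers of the same 4 rats, and are used where a difference between CA1 and DG is set against CA2 and CA3. A captured layer also holds the glia, vessels and interneurons that lie within it, and in such bulk samples fewer cells of a type and less RNA per cell cannot be told apart.

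CA1 pyramidal neurons are the main output cells of the hippocampus proper. They receive the Schaffer collaterals of CA3 and project to the subiculum and cortex. Dentate granule neurons are small, densely packed cells that receive the perforant path from the entorhinal cortex and send mossy fibres to CA3. Their layer is among the few places in the adult rodent brain where neurons are still born, and mature granule cells are known for the homeobox factor Prox1.

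Of the 8 columns, DG replicates 2 and 4 differed by little more than sampling noise: the chi-square per degree of freedom of their counts was 1.04 over 13766 genes, while pairs of libraries within a subfield other than this pair and the like pair of CA2 gave 2.80 to 43.5. They were summed as 1 sample, and CA2 replicates 2 and 4 likewise, so that n was 4 in CA1 and CA3 and 3 in DG and CA2. The 7 CA1 and DG libraries held 3216512 to 14735244 counts, with CA1 replicate 4 the smallest, and genes of low abundance are measured with least precision there. Levels are given as CPM, counts scaled to library size after TMM normalization, and DG values follow the order replicate 1, the summed sample and replicate 3. A differentially expressed gene (DEG) had an adjusted p under 0.05 (quasi-likelihood test of edgeR, Benjamini-Hochberg adjustment over the 17174 genes tested), and log2 fold changes, with their standard error (SE), are CA1 over DG.

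Values of 4 known marker genes are given first. Each could be named only through marker lists that the study chose on these same libraries, so they are not a check of the labels. Prox1 had 2.27, 4.79, 3.36 and 4.33 CPM in the 4 CA1 libraries and 283, 366 and 395 CPM in the DG libraries. C1ql2, a secreted protein of mossy fibre synapses, had 0.695 to 1.24 CPM in CA1 and 184 to 269 CPM in DG, and the desmosomal gene Dsp 0.460 to 1.39 against 8.25 to 10.2 CPM. Wfs1, which encodes the endoplasmic reticulum protein wolframin, had 776, 712, 610 and 616 CPM in CA1 and 10.4, 11.8 and 14.9 CPM in DG. For none of these 4 genes did the CA1 and DG libraries overlap.

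Gene symbols limit what can be described. The counts carry Ensembl identifiers alone, and 288 of them could be paired with a symbol, through the study's own lists of subfield marker genes: 34 from the CA1 list, 14 each from the CA2 and CA3 lists and 226 from the DG list. The study chose these lists on the same libraries, so the direction of a CA1 or DG list gene in this comparison is not independent evidence. Markers of glia, endothelial cells, interneurons, choroid plexus and hilar mossy cells had no paired identifier and were not analysed here, nor were ribosomal, spliceosome and steroid response genes. Their part in the results below was not tested. The program that counted the reads and its strand setting are not given in the sources used here, so counts of overlapping, antisense or near-identical genes are uncertain.

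Between CA1 and DG, 2601 genes were higher in CA1 and 2442 were higher in DG, which is 15.1% and 14.2% of the 17174 genes tested. Most of these differences were small. Of the genes higher in CA1, 57.3% differed by less than 2-fold, and of those higher in DG, 53.8%. Strong DEGs, with a log2 fold change above 2 in size (over 4-fold), numbered 513 higher in CA1 (2.99% of genes tested) and 494 higher in DG (2.88%). The CA1 and DG libraries did not overlap for 467 and 478 of the strong DEGs. All CA1 libraries lay above all DG libraries for 17.5% of all genes tested, and below them for 17.5%.

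**Figure D1:**
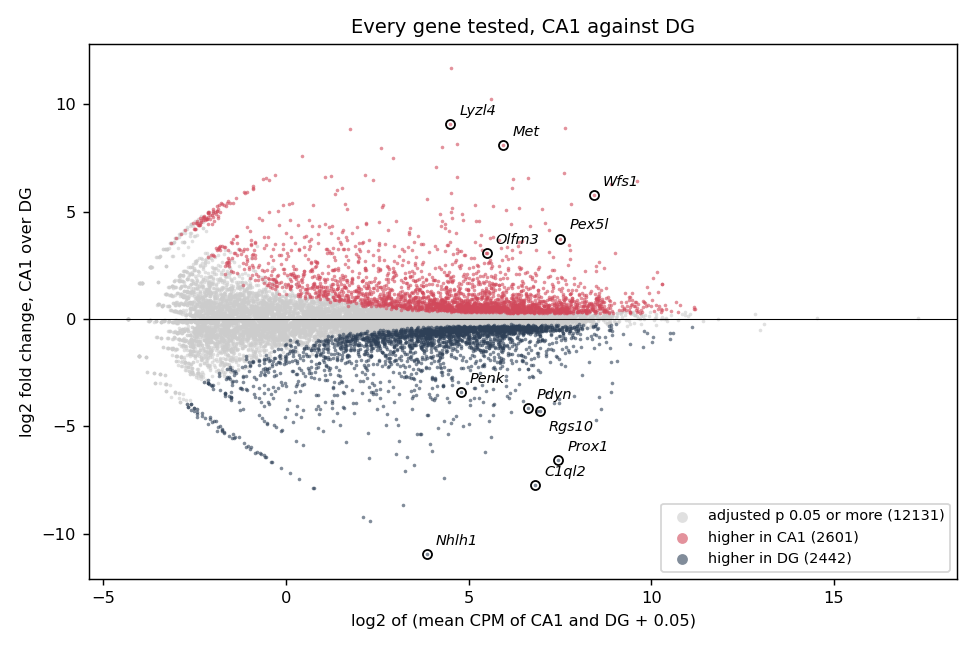
Log2 fold change of CA1 over DG (vertical axis) against log2 of the mean CPM of CA1 and DG plus 0.05 (horizontal axis), 1 point per gene tested. Red points are the 2601 genes higher in CA1 and dark blue points the 2442 higher in DG. Circles mark 11 genes described in the text, among them Lyzl4 and Met at the top and Nhlh1 at the bottom. The narrow lines of points at low CPM are genes with no or few counts in the lower subfield, whose fitted fold depends on the prior count.

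Among the genes with a symbol and at least 10 CPM in CA1, the largest differences towards CA1 included those of Lyzl4, a lysozyme-like gene, and Met, the receptor tyrosine kinase for hepatocyte growth factor. Lyzl4 had 56.3, 41.2, 45.0 and 37.4 CPM in the CA1 libraries and 0.182, 0.0649 and 0 CPM in DG, where it had 2 counts in all. The ratio of its summed counts was 677, with a 95% counting interval of 187 to 5598 (exact binomial, counting error only). Met had 116, 106, 121 and 148 CPM in CA1 and 0.364, 0.649 and 0.120 CPM in DG, a log2 fold change of 8.08 ± 0.65 (SE; edgeR adjusted p = 2.6e-09). In both genes the lowest CA1 library stood far above the highest DG library, and CA2 lay between them, with means of 9.16 CPM for Lyzl4 and 21.3 CPM for Met.

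Wfs1 had a mean of 679 CPM in CA1 and 12.4 CPM in DG, with CA2 at 91.4 CPM and CA3 at 35.6 CPM. Its log2 fold change over DG was 5.77 ± 0.67 (edgeR adjusted p = 7.2e-07). The CA3 mean rests in large part on CA3 replicate 2, which had 106 CPM of Wfs1 while the other CA3 libraries had 8.65 to 13.8 CPM and overlapped with DG. Over the 34 CA1 list genes, the summed CPM of that library was 15.9% of the CA1 mean, against 5.83% to 6.95% in the other CA3 libraries, 11.4% to 24.5% in CA2 and 5.25% to 6.12% in DG.

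Other genes named by the same rule had diverse roles. Htr1b, an inhibitory serotonin receptor, had 31.4 to 42.5 CPM in CA1 and 0.729 to 1.56 CPM in DG, a log2 fold change of 4.90 ± 0.51 (edgeR adjusted p = 1.46e-07). Ndst4, an N-deacetylase and sulfotransferase that modifies heparan sulphate, had 60.9 to 77.5 CPM in CA1 and 2.40 to 3.83 CPM in DG (log2 fold change 4.57 ± 0.35). Pex5l, known as TRIP8b, an auxiliary subunit that sets the surface level of HCN channels, had 292, 329, 355 and 375 CPM in CA1 and 21.5, 24.7 and 29.1 CPM in DG (3.74 ± 0.24, adjusted p = 8.06e-11). For all of these the CA1 and DG libraries were separate, which the rule that named them required.

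Arhgap12, a GTPase-activating protein, had a mean of 391 CPM in CA1 and 35.9 CPM in DG, and in CA3 its mean was 36.6 CPM. Ldb2, a cofactor of LIM-homeodomain factors, had 97.7 to 117 CPM in CA1 and 10.7 to 11 CPM in DG (log2 fold change 3.30 ± 0.20, edgeR adjusted p = 3.41e-11). Cdh6, a type II cadherin, had 17.1 ± 1.74 CPM (SD, n = 4) in CA1 and 1.70 ± 0.706 CPM (n = 3) in DG. Cd3e, a subunit of the T cell receptor complex, spread more widely in CA1, with 19.2, 13.4, 6.95 and 8.35 CPM, and it had 1 count over all DG libraries. Its ratio of summed counts was 378, with a counting interval of 67.5 to 14962.

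**Figure D2:**
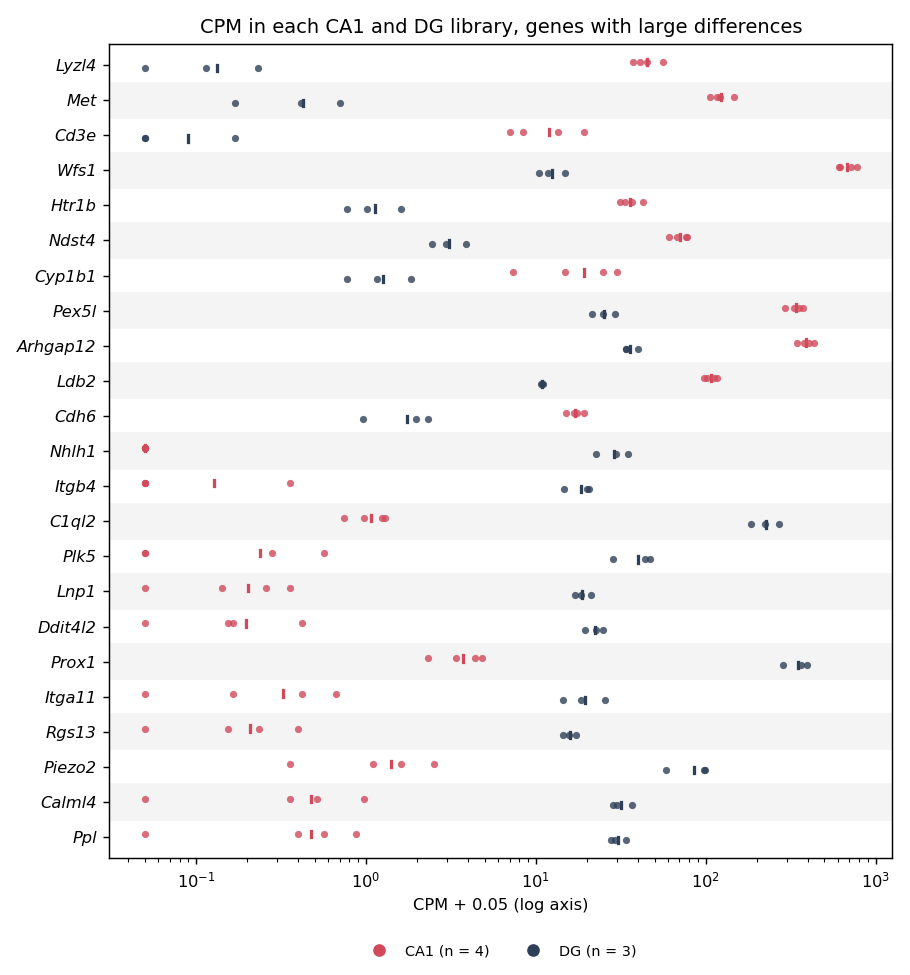
CPM plus 0.05 on a log axis for 11 of the 12 named genes with the largest log2 fold change towards CA1 and the 12 towards DG. They are the largest only among DEGs with a plain symbol, at least 10 CPM in the higher subfield and no overlap. Genes without a symbol could not enter. Each point is 1 library (red, CA1, n = 4, and dark blue, DG, n = 3) and each short line the mean. Points at the left edge are 0 CPM. The CA1 and DG points overlap in none of the 23 genes because the rule that picked them required it.

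Towards DG, the transcription factor Nhlh1 had no count in any CA1 library and 34.6, 22.5 and 29.5 CPM in DG, which is at least 289-fold higher in DG when CA1 is set at 3 counts over its libraries. The integrin subunit Itgb4 had 1 count over all CA1 libraries, in replicate 4, and 14.6, 19.9 and 20.5 CPM in DG. The ratio of its summed counts was 619, with a counting interval of 111 to 24479. Itga11, a collagen-binding integrin subunit, had 0 to 0.619 CPM in CA1 and 14.4 to 25.5 CPM in DG (log2 fold change -6.41 ± 0.49). CA1 and DG libraries of all 3 genes lay apart, again as a condition of being named.

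C1ql2 and Prox1 had log2 fold changes of -7.73 ± 0.37 (edgeR adjusted p = 1.08e-12) and -6.59 ± 0.39 (2.92e-11). Plk5, a polo-like kinase, had 0.516, 0, 0.232 and 0 CPM in CA1 and 47.2, 28.5 and 44.1 CPM in DG. Piezo2, a mechanically gated cation channel, had 0.309 to 2.47 CPM in CA1 and 58.6 to 99.1 CPM in DG, and Ppl, the desmosomal plakin periplakin, 0 to 0.83 against 27.5 to 34.0 CPM. The remaining genes of the 12 were Lnp1, Ddit4l2, the G protein regulator Rgs13 and the calmodulin-like gene Calml4, with log2 fold changes from -7.08 to -6.14 and CA1 means of 0.147 to 0.425 CPM.

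The 226 DG list genes summed to 9.41% to 10.6% of their DG level in the 4 CA1 libraries, a narrow range that was also seen in CA2 (9.05% to 11.6%) and in CA3 (9.13% to 13.7%). No CA1 library therefore stood apart in the level of DG genes. The median log2 fold change over the 226 was -3.62, or -3.54 with the 17 genes that had no count in CA1 set at their bound, and over all genes tested it was -0.01.

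The main question was which of these differences belong to CA1 and not to pyramidal layers in general. Of the 5043 DEGs, 435 higher in CA1 and 388 higher in DG (2.53% and 2.26% of genes tested) were called against DG in CA1 but not in CA2 or in CA3, where all 3 comparisons share the DG libraries. The second count fell to 253 without CA1 replicate 2. A gene that is called in CA1 and misses the threshold in CA2 need not differ between them, and the direct contrasts of CA1 with CA2 and with CA3 were therefore required as well, in the same direction. That left 144 genes higher in CA1 and 96 higher in DG (0.838% and 0.559% of genes tested), called CA1-particular below.

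The CA1-particular genes were mostly of moderate size. The median fold was 2.0 for those higher in CA1 and 1.73 for those higher in DG, and 33 and 11 of them were strong DEGs. The libraries of CA1 and DG did not overlap in 136 of the 144 and 90 of the 96, where 17.5% of all genes tested were separate in each direction, and since the genes had been called in this contrast the count adds nothing to the call. In CA2vsDG the median log2 fold change of the 144 was 0.05 and in CA3vsDG -0.04, and for the 96 it was -0.01 and 0.00. The rule favours such medians, since it drops genes called in these contrasts, but it sets no limit on the fold. Single genes of the 144 ranged from -2.49 to 4.11 in CA2vsDG and from -3.01 to 3.13 in CA3vsDG. Those of the 96 ranged from -1.13 to 1.22 and from -0.756 to 0.634. Without CA3 replicate 2 the counts were 138 and 90.

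Of the 144, 18 had a symbol, all from the study's CA1 list, and of the 96 none had. Olfm3, a secreted olfactomedin found in AMPA receptor complexes, had the smallest p of them. It had 85.6, 88.7, 72.7 and 73.6 CPM in CA1 and 9.84, 8.77 and 10.3 CPM in DG, with a range of 11.9 to 14.8 CPM in CA2 and 7.04 to 16.8 CPM in CA3. The CA1 libraries thus stood above every other library, and the CA3 libraries overlapped with both CA2 and DG. The separation of CA1 largely follows from the choice of the gene, which had been called over each other subfield. Its log2 fold change was 3.07 ± 0.22 over DG (edgeR adjusted p = 3.33e-10), 2.58 ± 0.21 over CA2 and 2.87 ± 0.19 over CA3, while CA2 over DG was 0.49 ± 0.23 (adjusted p = 0.108) and CA3 over DG 0.20 ± 0.22 (0.521).

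Gabrr2, which encodes the rho2 subunit of the GABA-A receptor family, had 15.3, 12.9, 17.6 and 13.9 CPM in CA1 and 1.82, 1.69 and 2.52 CPM in DG. Its log2 fold change was 2.91 ± 0.24 (edgeR adjusted p = 4.35e-09), and CA2 over DG was 0.69 ± 0.28 (0.0638), near the threshold. Ackr2, an atypical chemokine receptor that takes up chemokines without signalling through G proteins, had 10.5 to 12.7 CPM in CA1 and 1.27 to 2.86 CPM in DG, and its means in CA2 and CA3 were 1.46 and 1.19 CPM. For both genes the CA1 libraries overlapped with no other subfield, which again largely follows from how they were picked.

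Drd5, the dopamine D5 receptor, had 5.98, 4.88, 7.19 and 2.17 CPM in CA1 and 2 counts over all DG libraries, a ratio of 81.2 with a counting interval of 22.1 to 675. Its CA2 over DG value, 2.73 ± 1.08 (adjusted p = 0.0545), rests on few counts, and Drd5 met the CA1-particular rule in 15 of 24 other settings. Ackr2 met it in 22, Olfm3 in 21 and Gabrr2 in 19.

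A further 13 genes with a symbol were below 5 CPM in CA1 or had a clone name. Among them the Wnt ligand Wnt3a had 4.02, 1.84, 3.59 and 0.928 CPM in CA1 and no count in DG, at least 28.0-fold higher in CA1 with DG set at 3 counts over its libraries. Mybpc2, a myosin-binding protein of fast muscle, had 31 counts in CA1 and none in DG, at least 9.32-fold higher.

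**Figure D3:**
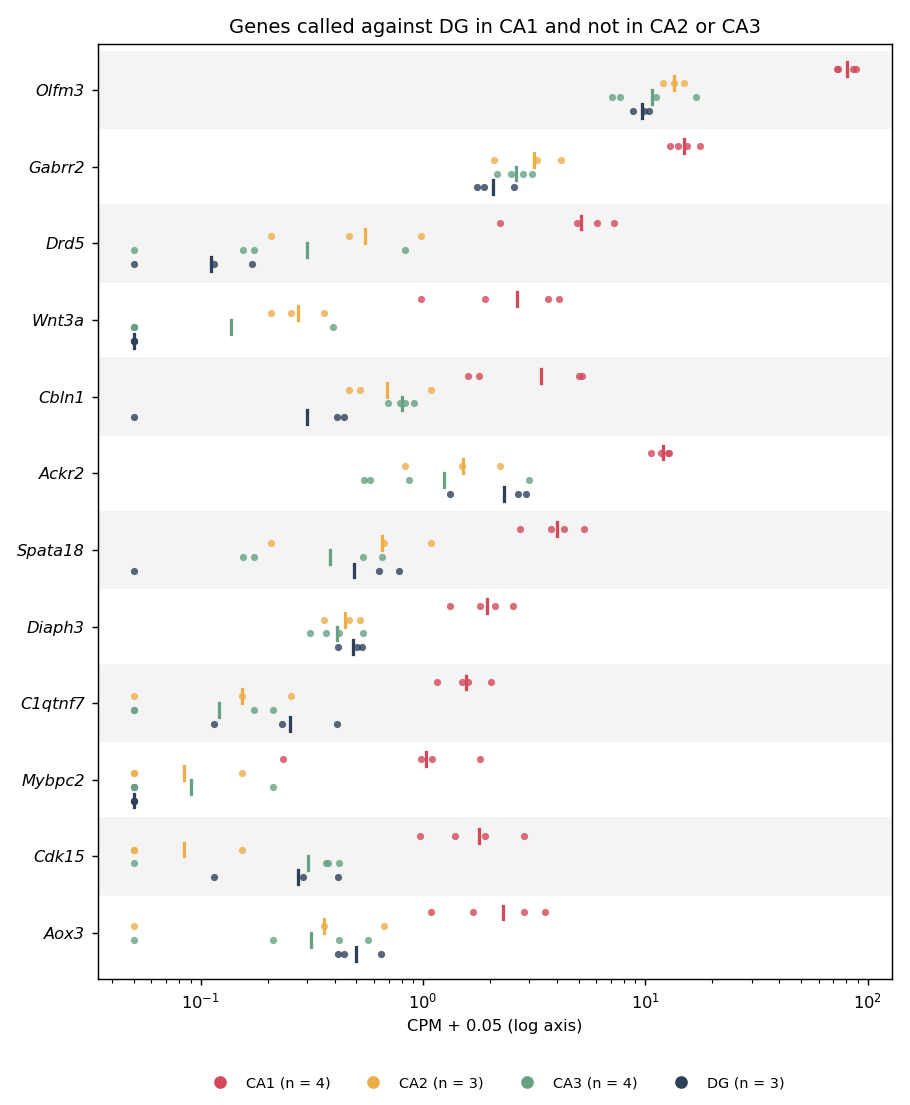
CPM plus 0.05 on a log axis in every library of the 4 subfields, for 12 of the CA1-particular genes with a plain symbol. Points are libraries, short lines are means and points at the left edge are 0 CPM. In each gene the lowest CA1 point (red) lies above the highest point of the other 3 subfields. All come from the study's CA1 list and were called over each other subfield, so this separation largely follows from how they were picked.

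Towards DG, the CA1-particular genes can be shown by identifier alone. ENSRNOG00000056151 had 32.4, 34.8, 43.9 and 36.2 CPM in CA1 and 133, 165 and 159 CPM in DG, and 121 to 139 CPM in CA2 and 157 to 209 CPM in CA3. ENSRNOG00000014971 had 33.5, 33.9, 29.4 and 29.1 CPM in CA1, 96.5, 106 and 104 CPM in DG, 81.5 to 112 CPM in CA2 and 96.4 to 121 CPM in CA3. Both were lower in every CA1 library than in any library of the other 3 subfields, with log2 fold changes of -2.05 ± 0.13 (edgeR adjusted p = 5.48e-11) and -1.69 ± 0.12 (3.87e-10). Both had been picked by smallest p among genes called in these contrasts, so the separation adds nothing to the call. For the second gene CA2 over DG was -0.08 ± 0.12 and CA3 over DG 0.06 ± 0.12.

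The promoter windows of 5 genes are shown because they span the patterns above: Olfm3 and Gabrr2 for genes high in CA1 against every subfield, Wfs1 for a gene high in CA1 and intermediate in CA2, Nhlh1 for a gene with no count in CA1 and Pdyn for a DG gene discussed below. Each is 300 bases long, from 250 before to 50 after the RefSeq start in the build GRCr8, written 5′ to 3′ on the strand of the gene. The windows are chr2:205598709-205599008 (plus strand) for Olfm3, chr5:52248228-52248527 (plus) for Gabrr2, chr14:78034955-78035254 (plus) for Wfs1, chr13:87054885-87055184 (minus) for Nhlh1 and chr3:137366454-137366753 (minus) for Pdyn. Capitals mark motifs that were searched on both strands. They were the core of the cyclic AMP response element (TGACGT), an E-box known from neuronal basic helix-loop-helix factors (CAGATG), a palindromic E-box (CAGCTG) and a TATA box core (TATAAA).
Olfm3: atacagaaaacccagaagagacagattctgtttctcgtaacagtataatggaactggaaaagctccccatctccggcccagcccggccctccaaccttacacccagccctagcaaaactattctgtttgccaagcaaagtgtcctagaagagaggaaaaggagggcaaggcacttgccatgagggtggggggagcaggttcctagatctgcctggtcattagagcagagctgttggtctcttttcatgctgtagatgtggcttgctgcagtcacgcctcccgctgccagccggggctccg
Gabrr2: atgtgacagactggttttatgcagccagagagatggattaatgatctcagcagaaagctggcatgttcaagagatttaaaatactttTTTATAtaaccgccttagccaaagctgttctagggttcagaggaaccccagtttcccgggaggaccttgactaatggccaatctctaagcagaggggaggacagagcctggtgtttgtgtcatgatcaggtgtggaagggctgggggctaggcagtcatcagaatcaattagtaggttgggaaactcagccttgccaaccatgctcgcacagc
Wfs1: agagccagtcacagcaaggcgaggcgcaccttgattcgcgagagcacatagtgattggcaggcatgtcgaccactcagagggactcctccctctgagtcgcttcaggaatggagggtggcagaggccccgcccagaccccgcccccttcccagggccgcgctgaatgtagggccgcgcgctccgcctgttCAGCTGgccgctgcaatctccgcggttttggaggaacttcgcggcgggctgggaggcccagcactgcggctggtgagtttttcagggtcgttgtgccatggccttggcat
Nhlh1: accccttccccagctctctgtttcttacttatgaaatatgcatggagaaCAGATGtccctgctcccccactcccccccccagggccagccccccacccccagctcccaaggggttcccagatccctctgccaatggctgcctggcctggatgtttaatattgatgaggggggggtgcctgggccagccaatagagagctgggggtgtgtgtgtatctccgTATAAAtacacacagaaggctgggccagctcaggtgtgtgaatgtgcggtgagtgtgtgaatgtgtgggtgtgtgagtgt
Pdyn: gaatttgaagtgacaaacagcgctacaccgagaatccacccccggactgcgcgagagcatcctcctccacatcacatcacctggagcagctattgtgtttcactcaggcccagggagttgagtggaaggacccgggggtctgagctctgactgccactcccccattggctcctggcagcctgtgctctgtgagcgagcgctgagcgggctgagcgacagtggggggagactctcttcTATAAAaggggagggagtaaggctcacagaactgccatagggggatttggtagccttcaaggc
Olfm3 held none of the 4 motifs. Gabrr2 held the TATA core on the other strand, Wfs1 the palindromic E-box beginning 60 bases before the start, Nhlh1 the other E-box and, 30 bases before the start, the TATA core, and Pdyn the TATA core. Over 33465 promoter windows, 7.94% held the cyclic AMP element core, 16.6% the neuronal E-box, 15.1% the palindromic E-box and 14.2% the TATA core. Of the DG list, 145 genes had a single window, and 5.52%, 11.7%, 15.2% and 12.4% held these motifs in the same order, and of the CA1 list, 23 genes had one, of which 2, 2, 2 and 1 held them. These are matches of letters and were not tested.

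Among the 226 DG list genes, the contrasts of CA1 with CA2 and CA3 were not what the list was chosen for, and show how the low pyramidal levels differ. In 11 of the 226 (4.87%) the level in CA1 was below both CA2 and CA3, and in 8 (3.54%) above both. Over all genes tested these shares were 5.56% and 5%. The list was chosen for low pyramidal levels, and in CA1 17 of its genes had no count and 22 had 1 to 3 counts. Differences between pyramidal layers may thus be harder to call in it, and nothing about the list is read from the shares. The genes themselves differ widely in level.

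Calml4 had 0 to 0.928 CPM in CA1 while its means were 5.39 CPM in CA2, 5.22 CPM in CA3 and 31.7 CPM in DG, so that CA1 over CA2 was -3.56 ± 0.45 (edgeR adjusted p = 7.52e-06) and CA1 over CA3 -3.56 ± 0.42 (1.65e-06). Unc5d, a netrin receptor of the UNC5 family, had means of 10.9 CPM in CA1, 30.0 CPM in CA2, 48.9 CPM in CA3 and 224 CPM in DG. Tnfaip8 had means of 1.57, 4.77, 8.69 and 44.1 CPM in the same order. The G protein regulator Rgs10 had 13.0, 11.2, 11.8 and 11.8 CPM in CA1 and 266, 233 and 205 CPM in DG, and its means of 20.1 CPM in CA2 and 23.1 CPM in CA3 were above CA1 in both contrasts.

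The opposite order was seen for Pdyn, the prodynorphin gene, precursor of the dynorphin opioid peptides of mossy fibres. It had 11.1, 10.5, 8.81 and 11.4 CPM in CA1 and 221, 170 and 169 CPM in DG, and means of 2.55 CPM in CA2 and 2.25 CPM in CA3. CA1 was thus the highest of the pyramidal layers, by 2.0 ± 0.39 over CA2 (edgeR adjusted p = 0.000905) and 2.39 ± 0.37 over CA3 (4.21e-05) on the log2 scale. Zcchc12, a zinc finger gene, had 107 to 152 CPM in CA1, 31.0 to 46.2 CPM in CA2, 46.9 to 54.0 CPM in CA3 and 463 to 554 CPM in DG, and Zmat4 followed with 19.4 to 26.9 CPM in CA1 and 6.91 to 11 CPM in CA2 and CA3.

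**Figure D4:**
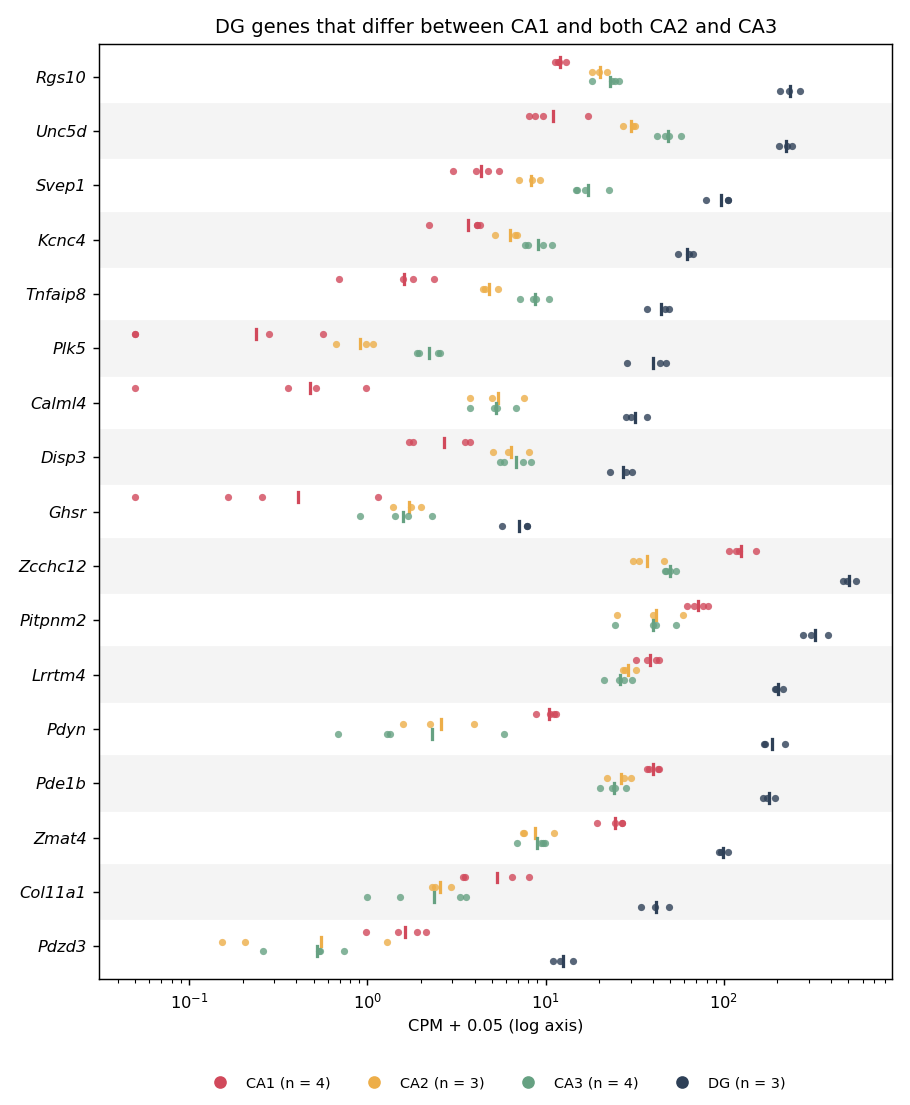
CPM plus 0.05 on a log axis in every library, for DG list genes whose CA1 level differs from both CA2 and CA3. The upper 9 genes, from Rgs10 to Ghsr, are lowest in CA1 among the pyramidal layers, and the lower 8, from Zcchc12 to Pdzd3, are highest there. In all 17 the DG libraries lie to the right of the CA1, CA2 and CA3 libraries. The study chose the DG list on these libraries for a higher level in DG, so this separation largely follows from that choice.

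The CA2 and CA3 lists were chosen for other contrasts. Of the 14 CA2 list genes, 10 were higher in CA1 than in DG and the other 4 were not called, where 15.1% of all genes were higher in CA1. Of the 14 CA3 list genes, 2 were higher in CA1 and 1 in DG, which is near the share of all genes. The median log2 fold change was 3.03 for the CA2 list, or 2.71 with Spp1, which had no count in DG, at its bound, and -0.39 for the CA3 list. Both lists had been chosen in part for a DG level below that of CA2 or CA3.

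Cyp1b1, a cytochrome P450 monooxygenase, had 7.32, 29.8, 24.8 and 14.8 CPM in CA1 and 0.729, 1.10 and 1.8 CPM in DG, and a mean of 136 CPM in CA2 (log2 fold change CA1 over DG 3.97 ± 0.46, edgeR adjusted p = 6.53e-07). Cacng5, an auxiliary subunit of AMPA receptors, had 2.37, 8.38, 9.62 and 2.78 CPM in CA1 and 0.182 to 0.584 CPM in DG. The adhesion gene Amigo2 had 5.78, 20.8, 13.1 and 7.73 CPM in CA1 and 3.28, 3.18 and 3.11 CPM in DG. In each of these genes CA1 replicates 2 and 3 were above replicates 1 and 4, and CA1 and DG did not overlap.

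Sfrp2, a secreted inhibitor of Wnt signalling, had 1.86, 8.01, 8.0 and 5.26 CPM in CA1 and 0.240 to 0.520 CPM in DG. From the CA3 list, Mx1, an interferon-induced GTPase, had 2.17 to 5.67 CPM in CA1 and 0 to 0.974 CPM in DG (log2 fold change 2.73 ± 0.51, edgeR adjusted p = 0.000274). Fxyd7, a regulator of the sodium pump, had 3.82 to 6.03 CPM in CA1 and 7.92 to 13.4 CPM in DG (-0.94 ± 0.27, 0.0111), and was the CA3 list gene higher in DG.

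**Figure D5:**
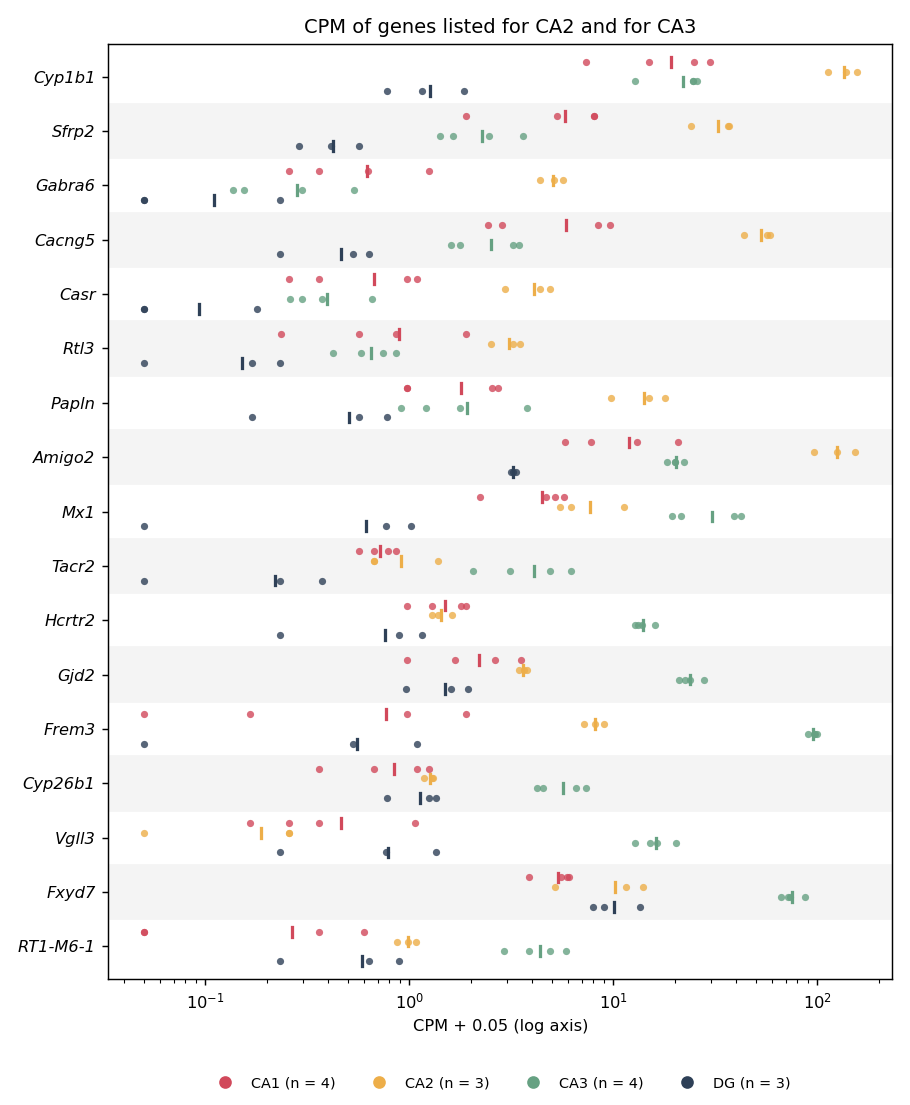
CPM plus 0.05 on a log axis in every library, for the CA2 list genes from Cyp1b1 to Amigo2 (8 genes) and the CA3 list genes from Mx1 to RT1-M6-1 (9 genes) with a mean of at least 0.5 CPM in CA1 or DG. Points at the left edge are 0 CPM. In the upper 8 genes CA1 lies to the right of DG, and in the lower 9 most CA1 and DG points overlap.

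Functional lists could be read only in part, since most of their symbols had no identifier, and nearly every member with one came from the CA1 or DG list. Of the 288 genes with a symbol, 78.8% were higher in DG and 16% higher in CA1, against 14.2% and 15.1% of all genes tested, since the study chose those lists on these libraries. The direction and the counts of members below are thus set by the way they were named, and nothing about a function is read from them. For the granule cell identity list, 15 of 20 genes could be measured, all higher in DG (median log2 fold change -4.36), and for the CA1 pyramidal identity list 7 of 20, all higher in CA1 (median 4.57), beside a median of -0.01 over all genes tested. Beside Prox1 and C1ql2, Plekha2 had means of 2.0 CPM in CA1 and 96.6 CPM in DG, and the calcium-permeable channel Trpc6 7.0 and 135 CPM. On the CA1 side Htr5b, a serotonin receptor, had 53.0 ± 4.86 CPM (SD, n = 4) in CA1 and 6.71 ± 1.15 CPM (n = 3) in DG, while in CA3 it was below DG (log2 fold change -1.18 ± 0.40, edgeR adjusted p = 0.0224).

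Of the GABA receptor list, 3 of 19 symbols could be measured: Gabrr2 was higher in CA1, and Gabrd, the delta subunit of extrasynaptic receptors, and Gabrr3 were higher in DG. Gabrd had 13.1, 11.9, 11.6 and 8.97 CPM in CA1 and 73.0, 60.3 and 70.1 CPM in DG, a log2 fold change of -2.54 ± 0.21 (edgeR adjusted p = 6.06e-09). Among glutamate receptors, the presynaptic metabotropic receptor Grm2 had 1.20 to 3.40 CPM in CA1 and 30.4 to 30.8 CPM in DG, and the kainate receptor subunit Grik3 means of 2.86 and 19.7 CPM. Of the voltage-gated potassium channels, 3 of 38 could be measured, each higher in DG and from the DG list. Kcnc4, which encodes Kv3.4, had 2.17 to 4.23 CPM in CA1 and 54.9 to 66.8 CPM in DG, and Kcna3 had means of 4.25 and 29.5 CPM. The inward rectifier Kcnj2 had means of 2.70 and 15.8 CPM.

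Of the neuromodulator receptors, 10 of 59 could be measured, 4 of them higher in CA1 and 6 in DG. The D1-like dopamine receptors went opposite ways. Drd5 was the CA1-particular gene above, and Drd1 had 2.17, 2.49, 1.62 and 1.86 CPM in CA1 and 9.11, 8.83 and 9.22 CPM in DG (log2 fold change -2.12 ± 0.22, edgeR adjusted p = 1.19e-07). The galanin receptor Galr1 had 7.53, 3.22, 3.59 and 3.09 CPM in CA1 and 0 to 0.455 CPM in DG. Towards DG were the thyrotropin-releasing hormone receptor Trhr, with means of 3.85 and 30.1 CPM, and the ghrelin receptor Ghsr, with 0.357 and 7.09 CPM.

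Among neuropeptides and growth factors, 10 of 42 genes could be measured, Wnt3a from the CA1 list and 9 that were higher in DG. Penk, the proenkephalin gene, had 3.82 to 5.88 CPM in CA1 and 45.5 to 56.7 CPM in DG (log2 fold change -3.38 ± 0.19, edgeR adjusted p = 1.51e-11). Kitlg, the ligand of the receptor Kit, had means of 5.97 and 95.6 CPM, and the neurotrophin Ntf3 2.90 and 41.1 CPM. Cartpt, a peptide precursor, was the least even of them in DG, with 1.27, 10.9 and 8.38 CPM.

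In intracellular signalling, 4 of 41 genes of calcium buffering and signalling and 4 of 18 RGS proteins could be measured, each from the DG list and higher in DG. Adcy1, the calmodulin-stimulated adenylyl cyclase, had 59.2, 79.7, 99.8 and 88.8 CPM in CA1 and 761, 892 and 943 CPM in DG (log2 fold change -3.41 ± 0.24, edgeR adjusted p = 4.11e-10). The ryanodine receptor Ryr1 had means of 4.01 and 35.3 CPM, the phosphodiesterase Pde7b 6.44 and 40.1 CPM, and Rgs9 2.92 and 19.4 CPM. The activity-regulated gene Btg2 had means of 6.22 CPM in CA1 and 39.2 CPM in DG and was the single member of its list measured.

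Of the adhesion genes, 7 of 49 could be measured, of which Cdh6 and Amigo2 were higher in CA1 and 5 in DG. Cdh13, a cadherin anchored in the membrane by a lipid, had 22.0 to 27.3 CPM in CA1 and 307 to 358 CPM in DG (log2 fold change -3.73 ± 0.13, edgeR adjusted p = 1.81e-14). The guidance gene Sema5a had 50.5 to 70.5 CPM in CA1 and 625 to 760 CPM in DG, and Unc5d and Efna1 were also higher in DG. Of 7 actin regulation genes measured (of 87), the formin Diaph3 was higher in CA1, with means of 1.89 and 0.433 CPM, and 6 were higher in DG, among them the Rac exchange factor Tiam1, with 20.6 and 305 CPM. Of the patterning transcription factors, Ldb2 was higher in CA1, and Prox1, Rfx3 (22.4 and 333 CPM), Glis3 (0.647 and 15.4 CPM), Tshz1 and Dach1 were higher in DG.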

How the data were processed

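Laser-captured CA1, CA2, CA3 and DG layers of 4 rats were sequenced as stranded total RNA. Reads were aligned by the authors (STAR, Rnor6), who deposited the raw counts of 32883 Ensembl genes. The submitters' processing notes name DESeq2 3.12. The authors' tables of fold changes and p-values for each comparison were not used.

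Columns were assigned by name. The 17174 genes whose counts over the 14 libraries exceeded 10 entered edgeR 4.0.16 (R 4.3.3): TMM, 1 coefficient per subfield, quasi-likelihood F-tests, Benjamini-Hochberg adjustment, DEG at an adjusted p under 0.05. All subfields shared the estimate of the spread (common dispersion 0.01888). The standard error is the log2 fold change over the square root of F. A subfield at 0 counts was set at 3 counts over its libraries.

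The named genes were, per direction, the 12 largest DEGs with a plain symbol, at least 10 CPM in the higher subfield and no overlap, up to 10 CA1-particular genes at 5 CPM or more, up to 3 per gene list at 5 CPM or more, subfield markers, and the 2 CA1-particular genes of smallest p. Further list members and the genes from the CA2, CA3 and DG lists outside these rules were named after their values were seen. Some genes that these rules name are not reported here. The members and lists were chosen with earlier results of these data known. Promoter windows are RefSeq's, build GRCr8, found for 188 of the genes by symbol.

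Replicate numbers stand for rats in the study. Deviations from the subfield mean in CA1 and DG correlated, over 8807 genes, at 0.629 for rat 1 and 0.378 for rat 3, and the summed DG sample correlated at 0.0768 with CA1 replicate 2 and at 0.350 with replicate 4. Its rat is not known, so the paired fit was run with either. The labels do not say whether replicates differ in anything beyond the number, and p-values measure the spread between these samples. The alternatives were DESeq2 1.42.0, size factors, other filters, handling of the repeated columns, equal depth, the replicate block, CA1 and DG alone, and leaving out each library. The procedure was tested on simulated counts. Python 3.11.15 with pandas 2.3.3 and scipy 1.17.1 was used for the rest.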

Additional observations from a re-analysis of the deposited data

Results flagged for a closer look

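The CA1 values of 61 genes with a symbol, picked by size of fold, were examined for a library far from the other 3. Far meant a gap to its nearest neighbour, relative to the whole range of the 4 libraries, above Dixon's 95% critical value. Chance passes that value in about 1 in 20 groups. Genes named in other ways, such as Galr1 and Dsp, were not examined, nor was DG, with 3 samples. The criterion was met by 5 genes. In 4 of the 5 the library was CA1 replicate 4, which had the lowest total of counts. Htr5b had 45.8 CPM there against 54.8 to 56.3 CPM in the other CA1 libraries. Kcnc4 had 2.17 CPM there against 4.05 to 4.23 CPM. Kcnj2 had 1.86 CPM there, again the lowest. Itgb4 had 0.309 CPM there, from 1 count, and 0 CPM in the other CA1 libraries. Unc5d had 17.3 CPM in CA1 replicate 2 against 8.04 to 9.59 CPM in the others. The direction of CA1 over DG and its call held for each of these 5 genes under all 25 other settings.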

How the results depend on the processing

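The 25 other settings moved no count of DEGs or strong DEGs by over 1.5 times: genes higher in CA1 ranged from 1929 to 3080 and genes higher in DG from 2046 to 2928, against 2601 and 2442, and strong DEGs from 380 to 544 and from 348 to 544. Leaving out each library in turn gave 1929 to 2640 and 2112 to 2665 DEGs, and 104 to 162 and 76 to 107 CA1-particular genes. DEGs not called in CA2vsDG or CA3vsDG ranged, with a library left out, from 330 to 506 towards CA1 and from 253 to 450 towards DG, the lowest being without CA1 replicate 2. Without requiring the direct contrasts with CA2 and CA3, CA1-particular genes rise to 435 and 388 by construction. The paired fit with the replicate block gave 3080 and 2928 DEGs with the summed samples placed with rat 2, and 3003 and 2891 with rat 4. It changed no call against DG among the genes picked by size of fold. CA1-particular genes were 146 and 114, and 147 and 117, in these fits, of which 115 and 74, and 109 and 65, were among the 144 and 96. Of 1575 values under other settings, all kept their direction and call against DG. They covered the genes picked by size of fold and the 2 CA1-particular genes shown by identifier. Other genes described above, such as Fxyd7, Mx1 and Penk, were not among them. The covered genes had been picked among those called in this contrast, mainly by size of fold, so other genes may be less stable. The CA1-particular call was not part of that count, and varied as given above for Drd5, Gabrr2, Olfm3 and Ackr2. The smallest library, at 3216512 counts, limits the low genes: at equal depth 2129 and 2046 genes were called.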
